A study of Homo sapiens with 6 samples.

Results

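Cyclins and the cyclin-dependent kinases (CDKs) that drive the cell cycle were examined in A673/TR/LOX-PP cells, compared with A673/TR/empty control cells. The genes were the D cyclins CCND1, CCND2 and CCND3, the E cyclins CCNE1 and CCNE2, the A cyclin CCNA2, the B cyclins CCNB1 and CCNB2, and the kinases CDK1 and CDK2. A probe belonged to the set when the transcript accession given for it on the array was that of 1 of these 10 genes, whatever its signal. This gave 13 probes of 50599 gene probes, with 2 probes each for CCNE2, CCNB1 and CDK1, and every probe was kept separate. All 13 probes were tested, and 12 of them were above background on all 6 arrays.

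A673 is an established human Ewing sarcoma cell line. The A673/TR cells carry a tetracycline-regulated expression system, and were infected with a lentiviral vector that was either empty or carried the propeptide of lysyl oxidase (LOX-PP), which is cleaved from the LOX enzyme when it matures. Each group had 3 cultures labelled as replicates, and each culture was hybridised to 1 single-colour array of oligonucleotide probes. The labels give a doxycycline dose of 1 µM and a time of 72 h for all 6 samples. The study's methods give doxycycline for cell culture in µg/ml, so the unit of the dose is not settled, and they name the inducer clearly only for the LOX-PP cells, so whether the control cultures also received it is not settled by these sources. The stable cells were clones selected with zeocin, and for the LOX constructs those with the highest expression on doxycycline were chosen. How the control line was chosen and which clone was hybridised are not given in the sources used here. The effect of LOX-PP therefore cannot be told apart from a difference between cloned lines, and the p-values below measure the spread between these cultures only.

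Progress through the cell cycle depends on CDKs, which are active only when bound to a cyclin. D cyclins respond to growth signals and pair with CDK4 and CDK6 in G1, where they start the phosphorylation of the retinoblastoma protein. E cyclins and then cyclin A bind CDK2 to start and sustain DNA synthesis, and cyclins A and B with CDK1 carry the cell into mitosis. In Ewing sarcoma the G1 part of this machinery is a known target of the EWS/FLI fusion protein, and CCND1 is strongly expressed in these tumours.

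The arrays held 58717 gene spots each, of which 56.9 to 74.8% were well above background in the control group and 59.3 to 74.1% in the LOX-PP group. LOX-PP replicate 1 came from another slide and scan than the other 5 arrays, and among the 3 LOX-PP arrays it was the lowest for 7 and the highest for 5 of the 13 probes. The LOX probe gave log2 signals of -0.09, 0.36 and 0.11 in the control replicates 1 to 3 and of -0.12, -0.68 and -1.29 in the LOX-PP replicates 1 to 3 (relative difference -0.95, limma adjusted p = 0.217). Its position in the transcript is not given in the sources used here, so it does not check whether the propeptide was expressed. All 6 Ewing sarcoma genes fixed as markers (CD99, NR0B1, NKX2-2, STEAP1, LIPI and CCK) were above background on every array, with a summed signal of 154 to 178 times the array's 75th percentile in control cells and 183 to 222 times in LOX-PP cells. The leukocyte markers (4 of 4 above background) summed to 0.550 to 0.742 against 0.566 to 1.16 times that percentile, the epithelial markers (1 of 3, with CDH1 and KRT5 above background on none of the arrays) to 0.0769 to 0.113 against 0.0903 to 0.209, and the endothelial markers (2 of 3) to 0.319 to 0.436 against 0.426 to 0.733. The part of these differences in the cyclin and CDK values was not tested.

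Signals are given as log2 of the processed signal minus the 75th percentile of the same array, so a value of 0 is a signal at that percentile. The level of a probe is compared between arrays and not with that of another probe, except that the brightest probe was taken to stand for a gene in the counts of genes, and that for genes with 2 probes the difference between them within an array was followed from group to group. Differences are LOX-PP minus empty, and are relative to the median difference of all tested probes, which was 0.13. An adjusted p is that of limma with Benjamini-Hochberg adjustment over all 32647 tested probes, computed on the difference before that median was subtracted. The 95% intervals are those of single probes, moved by that median as a fixed number. An interval that leaves out 0 therefore does not match the limma p. In whole cultures, fewer cells in a phase of the cycle and less RNA per cell cannot be told apart.

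Of the 13 probes, 2 passed an adjusted p of 0.05, CCND2 as the 1 higher and a CCNB1 probe as the 1 lower, the former with 1 of 3 control arrays above background. These are 15.4% of the set, beside 5.66% of all tested probes (3.31% higher and 2.36% lower). CCND2 met the filter on dim probes through the group in which it was high, so this share is not a result about the set. With the filter on all 6 arrays, 1 of 12 cyclin and CDK probes passed, beside 1729 of 24720 tested probes. The counts of probes and of genes that follow, and the median of the 10 genes, include CCND2. At an unadjusted p of 0.05 the count was 3 of 13, or 23.1%, close to the 21.3% of all tested probes. For 5 of the 13 probes (38.5%) the groups did not overlap, 3 higher and 2 lower, beside 29.5% of all tested probes (16.1% higher and 13.4% lower). With the brightest probe of each gene, 5 genes lay above and 5 below the median of all tested probes. The median of the 10 genes was -0.04 (-0.08 after quantile normalization). That of all 16601 named genes with a tested probe was -0.09 (-0.01 after quantile normalization). The members thus lay on both sides of the other genes.

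**Figure D1:**
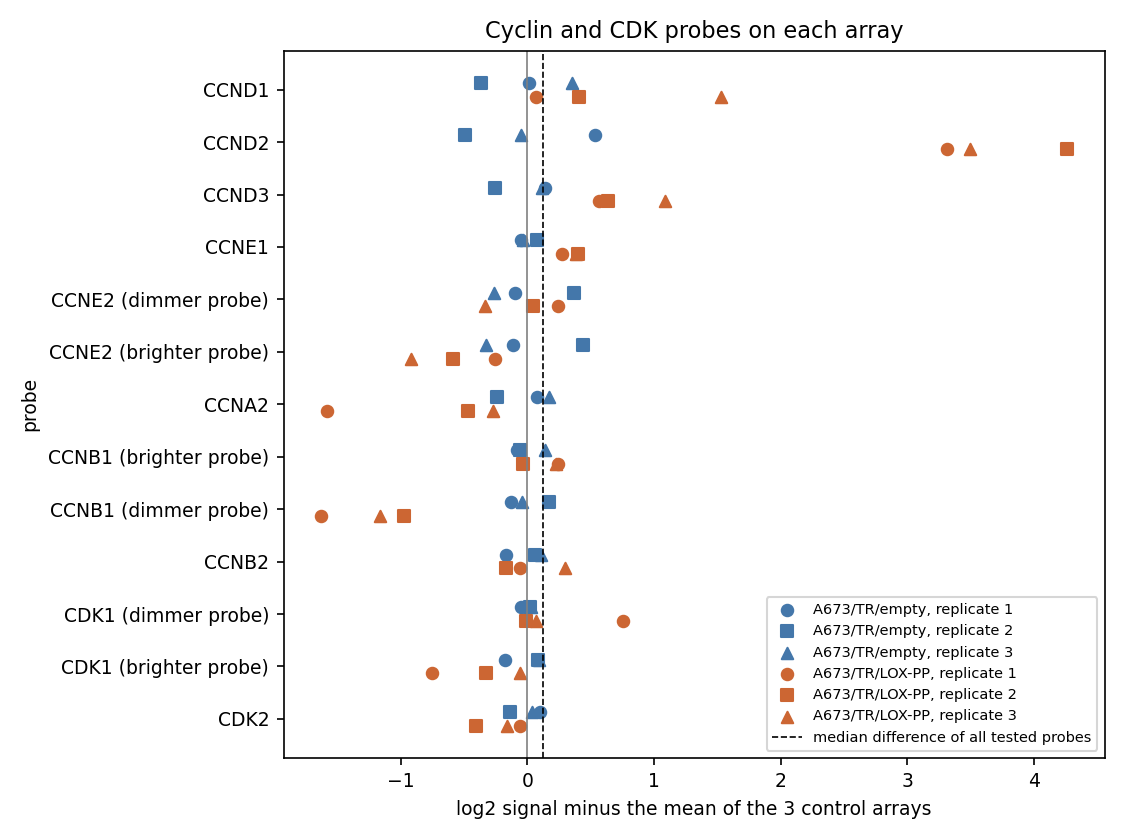
Signal of the 13 cyclin and CDK probes on each of the 6 arrays, as log2 signal minus the mean of the 3 control arrays of the same probe. Blue symbols are A673/TR/empty and orange symbols A673/TR/LOX-PP, with 1 symbol shape for each replicate number, and the dashed line is the median difference of all tested probes (0.13). The 3 LOX-PP arrays of CCND2 lie far to the right of its controls, and those of the dimmer CCNB1 probe lie to the left of its controls.

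Of the D cyclins, which link growth signals to G1, CCND2 was higher in LOX-PP cells, from a control signal at the edge of detection, while the positive differences of CCND1 and CCND3 did not pass the test. CCND2 (cyclin D2, chromosome 12, NM_001759) gave log2 signals of -5.23, -6.26 and -5.82 in the control replicates 1 to 3 and of -2.45, -1.50 and -2.27 in the LOX-PP replicates 1 to 3. Every LOX-PP array stood above every control array, and the lowest of them exceeded control replicate 1, the highest control, by 2.78. The fitted relative difference was 3.57 (95% interval 2.69 to 4.44, n = 3 per group, adjusted p = 0.00356).

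The CCND2 probe was well above background on 1 of 3 control arrays, replicate 1, and on 3 of 3 LOX-PP arrays, so it met the filter on dim probes through the group in which it was high. It was printed in 1 spot on each array. Its processed signals were 203, 81.9 and 110 in the control replicates and 520, 2206 and 690 in the LOX-PP replicates. The fitted difference is therefore not a measured fold change, and its size depends on how the background is treated. With the normexp background correction the relative difference was 1.98 (adjusted p = 0.0167), and over the 15 alternatives in which the probe was tested it ranged from 1.98 to 3.85 and passed the threshold in 14. The exception was the methods' t-test, with an adjusted p of 0.0505. The alternatives here and below reuse the same 6 arrays and some repeat each other, so their counts are not separate checks. CCND2 was not tested among probes above background on all 6 arrays.

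CCND3 (cyclin D3, chromosome 6, NM_001760) gave 1.63, 1.24 and 1.61 in control cells and 2.06, 2.13 and 2.58 in LOX-PP cells. The groups did not overlap, with a gap of 0.42 between them. The relative difference of 0.64 (95% interval 0.05 to 1.22) had an adjusted p of 0.135 with limma, and over 16 alternatives the difference ranged from 0.46 to 0.91 and never passed (adjusted p 0.0605 to 0.429). When all tested probes were split by signal into 10 classes of equal size, the probes of its class had a median relative difference of -0.25. The class of CCNE1, CCNA2 and the dimmer CCNB1 probe also had -0.25, and that of CCND2 had 0.19. Among genes described below, RB1 and the called RBBP4 probe lay in classes with -0.25. CDK6, CCNO and the called CDK8 probe lay in a class with -0.17, and CDKN1A in 1 with 0.08. The part of this in the values of these probes was not tested.

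CCND1 (cyclin D1, chromosome 11, NM_053056) gave 0.33, -0.05 and 0.67 in control cells and 0.38, 0.73 and 1.85 in LOX-PP cells. Its groups overlapped, and LOX-PP replicate 3 stood well above its own group. The relative difference was 0.54 (95% interval -0.44 to 1.52, limma adjusted p = 0.406), and without LOX-PP replicate 3 it was 0.11. The probe was printed in 10 spots on each array, and the SD of log2 signal over these spots was 0.0302 to 0.0782, so the spread between cultures was many times the spread within an array.

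None of the 3 probes of the E cyclins, which open S phase with CDK2, passed the test, and the genes were not tested against each other. CCNE1 (chromosome 19, NM_001238) gave 2.49, 2.62 and 2.51 in control cells and 2.82, 2.94 and 2.92 in LOX-PP cells. The replicates lay close together, with an SD of 0.0690 in control and 0.0665 in LOX-PP cells, and a gap of 0.20 separated the groups. The relative difference was 0.23 (95% interval -0.23 to 0.68), and did not pass with limma (adjusted p = 0.345). After quantile normalization it was 0.50 (95% interval 0.10 to 0.90, limma adjusted p = 0.172), and over 16 alternatives it lay between 0.05 and 0.50 without passing.

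CCNE2 (chromosome 8) was measured by 2 probes for the same transcript, NM_057749. The brighter probe gave 0.27, 0.82 and 0.05 in control cells and 0.12, -0.21 and -0.54 in LOX-PP cells, a relative difference of -0.72 (95% interval -1.42 to -0.02) with a limma adjusted p of 0.302. The dimmer probe gave -1.90, -1.44 and -2.07 in control cells and -1.57, -1.76 and -2.14 in LOX-PP cells, a relative difference of -0.14 (95% interval -0.78 to 0.50, limma adjusted p = 0.980). Both probes overlapped between the groups. The 559 named genes of chromosome 8 had a median relative difference of -0.42, and the medians for the chromosomes of the other 9 genes lay between -0.29 and 0.12, the chromosome of CCNE2 having the lowest. The part of this in the CCNE2 values was not tested.

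CCNA2 (cyclin A2, chromosome 4, NM_001237), the cyclin of S phase and early mitosis, gave 3.57, 3.26 and 3.67 in control cells and 1.92, 3.03 and 3.23 in LOX-PP cells. The groups separated only barely, by 0.03, and LOX-PP replicate 1 lay far below the other 2. The relative difference was -0.90 (95% interval -1.79 to -0.01), with a limma adjusted p of 0.288, and without LOX-PP replicate 1, the array of the other slide, it was -0.53 (adjusted p = 0.331). The probe was printed in 10 spots, and the SD over them was at most 0.104 on any array. Over 16 alternatives the difference stayed between -1.16 and -0.53 and did not pass in any of them.

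The B cyclins, the partners of CDK1 in mitosis, gave different answers for different probes. CCNB1 (cyclin B1, chromosome 5) had 2 probes for transcript NM_031966. The brighter probe gave 5.35, 5.38 and 5.58 in control cells and 5.68, 5.40 and 5.66 in LOX-PP cells. Its groups overlapped, with a relative difference of 0.02 (95% interval -0.48 to 0.51, limma adjusted p = 0.738).

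The dimmer CCNB1 probe gave 3.80, 4.09 and 3.89 in control cells and 2.30, 2.95 and 2.76 in LOX-PP cells. It was printed in 1 spot on each array, and the brighter CCNB1 probe in 10 spots. Every LOX-PP array was below every control array, by at least 0.85. The relative difference was -1.38 (95% interval -1.97 to -0.80), 2.61-fold lower, with an adjusted p of 0.0353. Of 16 alternatives 8 kept it past the threshold, and it did not pass without any 1 of the 3 control arrays or without LOX-PP replicate 2 or 3 (adjusted p 0.0577 to 0.169), while the difference itself stayed between -1.56 and -1.12.

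CCNB2 (cyclin B2, chromosome 15, NM_004701) gave 5.16, 5.39 and 5.43 in control cells and 5.27, 5.16 and 5.62 in LOX-PP cells. These values overlapped, with a relative difference of -0.10 (95% interval -0.64 to 0.43, limma adjusted p = 0.965). The relative difference of the dimmer CCNB1 probe (-1.38) was outside this interval, and that of the brighter CCNB1 probe (0.02) was inside it. CCNB1 and CCNB2 were not tested against each other.

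Many genes of mitosis share promoter elements, the CCAAT box, which NF-Y binds, and the cell cycle genes homology region (TTTGAA, and TTTAAA in some genes), through which the DREAM and MuvB complexes act. RefSeq promoter windows (GRCh38.p14) were at hand for 6 of the 10 genes, and the 130 bases before the start of CCNA2, CCNB1 and CCNB2 are shown because these mitotic cyclins are textbook carriers of such elements. They are written 5′ to 3′ on the strand of the gene, with CCAAT on either strand (ATTGG where it lies on the other strand), TTTGAA and TTTAAA in capitals. They cover chr4:121823884-121824013 (minus strand), chr5:69167020-69167149 (plus strand) and chr15:59105016-59105145 (plus strand), in the order of the lines.
CCNA2: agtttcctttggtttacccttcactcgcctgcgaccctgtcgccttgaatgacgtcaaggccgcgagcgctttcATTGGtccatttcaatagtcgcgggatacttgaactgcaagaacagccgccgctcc
CCNB1: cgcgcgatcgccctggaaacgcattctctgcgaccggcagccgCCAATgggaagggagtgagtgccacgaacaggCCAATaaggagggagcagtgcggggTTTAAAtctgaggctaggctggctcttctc
CCNB2: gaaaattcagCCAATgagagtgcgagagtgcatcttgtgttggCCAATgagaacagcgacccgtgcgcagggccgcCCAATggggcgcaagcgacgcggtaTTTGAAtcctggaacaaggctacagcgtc

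CCNB1 held CCAAT with its first base 87 and 55 bases before the start and TTTAAA at 30. CCNB2 held CCAAT at 120, 87 and 54 and TTTGAA at 29, with a further CCAAT at 244 and a TTTAAA at 193 outside the bases shown. CCNA2 held 1 CCAAT, on the opposite strand at 56, and neither TTTGAA nor TTTAAA. Other forms of the homology region were not searched for, so CCNA2 is not described as lacking that element. For CDK1, whose second listed start lies within the transcript of the first and is not printed, CCAAT on the opposite strand lay 78 and 46 bases before that start and TTTGAA at 69 and 13. Before the first listed start of CDK1, CCAAT lay at 150, TTTGAA at 161 and TTTAAA at 131.

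A pair of CCAAT on 1 strand that start 32 or 33 bases apart was present in CCNB1, CCNB2 and CDK1, in CDK1 only before the second listed start. Such a pair was present in 178 of 35116 RefSeq promoter windows (0.507%) when the 250 bases before the start were searched on both strands. Single matches were common, with CCAAT in 11240 of these windows, TTTGAA in 13.3% and TTTAAA in 11.3% of windows. CCNE1 held TTTAAA at 28 and no CCAAT, and CCND3 held CCAAT before 2 of its 3 listed starts with no spaced pair. The genes with the spaced pair had brightest probes with relative differences of 0.02 (CCNB1), -0.10 (CCNB2) and -0.51 (CDK1), none of which passed the test. Their dimmer probes were at -1.38 (CCNB1), which passed (limma adjusted p = 0.0353), and at 0.14 (CDK1), which did not. A match of letters is a description of the sequence and not a measured site.

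CDK1 (chromosome 10), the kinase of mitosis, had 2 probes for different transcript accessions. The brighter probe (NM_001786) gave 4.50, 4.77 and 4.77 in control cells and 3.93, 4.35 and 4.62 in LOX-PP cells. Its groups overlapped by 0.12, and the relative difference was -0.51 (95% interval -1.10 to 0.09, limma adjusted p = 0.438). The dimmer probe (NM_001170406) gave -3.21, -3.14 and -3.13 in control cells and -2.41, -3.17 and -3.09 in LOX-PP cells. LOX-PP replicate 1 stood far above the controls and the other 2 lay at their level, and the relative difference of 0.14 (95% interval -0.48 to 0.77, limma adjusted p = 0.608) became -0.13 without it.

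CDK2 (chromosome 12, NM_001798), the kinase of the E and A cyclins in S phase, gave 0.17, -0.07 and 0.10 in control cells and 0.01, -0.34 and -0.10 in LOX-PP cells. The groups overlapped by 0.08. The relative difference was -0.33 (95% interval -0.84 to 0.17, limma adjusted p = 0.625), and over 16 alternatives it stayed negative, between -0.51 and -0.16, without passing.

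**Figure D2:**
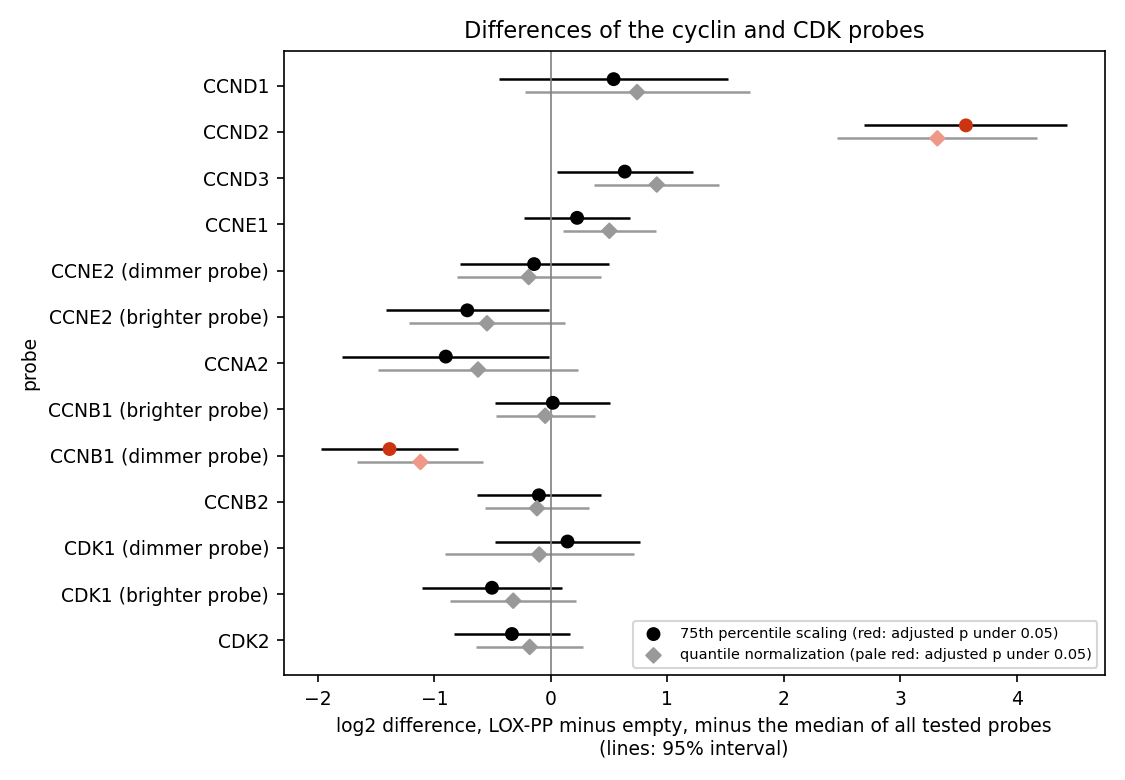
Relative log2 difference (LOX-PP minus empty, minus the median of all tested probes) of the 13 cyclin and CDK probes, with lines for the 95% interval of each probe and n = 3 arrays per group. Circles are the values scaled to the 75th percentile and diamonds those after quantile normalization, in red or pale red where the adjusted p was under 0.05. Both scalings put CCND2 (3.57 and 3.32) and the dimmer CCNB1 probe (-1.38 and -1.12) past the threshold. The intervals of CCNA2 and of the brighter CCNE2 probe reach across 0 after quantile normalization. All intervals are moved by the median as a fixed number, while p was computed before it was subtracted.

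The 3 genes with 2 probes allowed a comparison within each array, which does not change when an array is scaled by 1 factor but does change under quantile normalization. For CCNB1 the dimmer probe minus the brighter one was -1.55, -1.28 and -1.69 in control replicates 1 to 3 and -3.38, -2.45 and -2.90 in LOX-PP replicates 1 to 3. All LOX-PP arrays lay below all control arrays, with means of -1.51 ± 0.208 and -2.91 ± 0.466 (SD, n = 3), a change of -1.40 between the groups (-1.07 after quantile normalization).

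For CCNE2 the same quantity was -2.17, -2.26 and -2.12 in control cells and -1.69, -1.55 and -1.60 in LOX-PP cells. The spread within a group was far smaller than for either probe alone, with means of -2.18 ± 0.0690 and -1.61 ± 0.0698 (SD, n = 3), and the change between the groups was 0.57 (0.36 after quantile normalization, 1 of the alternatives added after seeing the data). For CDK1 it was -7.71, -7.91 and -7.90 in control cells and -6.34, -7.52 and -7.71 in LOX-PP cells. The change of 0.65 in CDK1 was 0.22 without LOX-PP replicate 1, which stood apart from the others, and also 0.22 after quantile normalization.

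The two-sided exact permutation p was 0.1 for CCNB1 and for CCNE2 and 0.2 for CDK1 (0.15, 0.15 and 0.2 after Benjamini-Hochberg adjustment over the 3 genes), where 0.1 is the smallest that 3 arrays against 3 allow. These comparisons thus could not reach 0.05. They describe unequal change of probes of 1 gene, and the position of the probes within the transcripts is not given in the sources used here.

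The regulators around these cyclins and CDKs were taken from lists of 93 genes, of which 90 had a tested probe. Of their 127 tested probes 5 (3.94%) passed the threshold, 2 higher and 3 lower, beside 5.66% of all tested probes, and the counts of single lists that follow are to be read against the same share. With the brightest probe of each gene, 62 of 90 genes (68.9%) lay below the median of all tested probes and their median was -0.17. Of all 16601 named genes 9379 (56.5%) lay below it, with a median of -0.09. After quantile normalization the count was 45 of 90 and the median 0.00, beside 8425 of 16601 and -0.01 for all named genes. The lower position was thus not seen under that scaling. With the normexp background correction it was seen, with 68 of 90 genes below and a median of -0.26. All named genes then had 9769 of 16601 below and a median of -0.13. With the authors' processed values the count stayed at 62 of 90 and the median at -0.17. The position of these genes therefore depended on the processing, and the alternatives moved it in both directions.

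The CDK-activating kinase, which phosphorylates CDKs in their activation loop, had 0 of 3 probes past the threshold and a median of -0.01 (0.28 after quantile normalization). Among the inhibitors that bind and block cyclin-CDK complexes, 1 of 7 measured genes passed. CDKN1A (chromosome 6), which encodes p21, the inhibitor induced by p53, gave -3.26, -3.69 and -2.12 in control cells and -0.55, -0.38 and -0.28 in LOX-PP cells. The groups were separated by 1.57, and the relative difference was 2.49 (95% interval 1.53 to 3.45, limma adjusted p = 0.0164). It passed in 10 of 16 alternatives and lay between 2.10 and 2.88 in all of them. Without control replicate 1 or 2, or without LOX-PP replicate 2 or 3, its adjusted p was 0.0561 to 0.0936.

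Of the kinases that pair with the D cyclins, CDK6 fell and CDK4 did not pass the test. CDK4 (chromosome 12) gave 5.04, 4.89 and 4.998 in control cells and 5.24, 4.72 and 4.86 in LOX-PP cells, overlapping groups with a relative difference of -0.16 (limma adjusted p = 0.951). CDK6 (chromosome 7) gave 1.62, 2.38 and 0.99 in control cells and 0.22, -0.50 and -0.24 in LOX-PP cells, and fell by 1.96 on the relative log2 scale (limma adjusted p = 0.0447). This call passed in 7 of 16 alternatives and was lost without any 1 array other than control replicate 3 (adjusted p 0.0501 to 0.177), with differences from -2.36 to -1.54. RB1 (chromosome 13), the substrate of these kinases, gave 3.12, 3.48 and 3.06 against 2.49, 2.81 and 3.17, with overlapping groups and a relative difference of -0.53 (limma adjusted p = 0.429).

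CDK6 was the 1 of 24 probes of the G1/S control list to pass. By their brightest probes 15 of its 18 genes lay below the median of all tested probes (14 after quantile normalization), with a list median of -0.50 (-0.25 after quantile normalization), beside 9379 of 16601 for all named genes. The mitotic entry and exit list, with kinases and regulators of the anaphase-promoting complex, had 0 of 16 probes past the threshold. In it 12 of 14 genes lay below, with a median of -0.21 (8 of 14 and -0.11 after quantile normalization). With the normexp background correction 13 of these 14 genes lay below, with a median of -0.29. The G1/S control list then had 15 of 18 genes below and a median of -0.57.

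In the list of regulators that transcribe mitotic genes, 6 of 7 genes lay below the median (5 of 7 after quantile normalization) and 1 of 11 probes passed. This was a probe of RBBP4 (chromosome 1), a histone-binding subunit of MuvB and of chromatin complexes, with 2.67, 2.48 and 2.31 in control cells and 1.00, 1.22 and 0.81 in LOX-PP cells. The groups were 1.09 apart, with a relative difference of -1.60 (limma adjusted p = 0.0151), and without control replicate 1 or 2 the adjusted p was 0.109 and 0.0851. The other 3 tested RBBP4 probes, at -0.62, -0.73 and -0.37, did not pass.

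The remaining cyclins and CDKs, several of which act in transcription and not in the cell cycle, held 1 call each, among 21 probes of other cyclins and 24 of other CDKs. CCNO (cyclin O, chromosome 5), best known from the differentiation of ciliated cells, gave -0.13, -0.34 and 0.07 in control cells and 1.11, 1.40 and 1.37 in LOX-PP cells, a rise of 1.30 relative to all probes (limma adjusted p = 0.0163) in groups separated by 1.04. Without control replicate 1 or 2, or LOX-PP replicate 2 or 3, its adjusted p was 0.0521 to 0.108. CDK8 (chromosome 13), the kinase of the Mediator complex, gave 0.82, 0.99 and 0.91 in control cells and -1.57, -0.36 and -0.67 in LOX-PP cells, a relative difference of -1.90 (limma adjusted p = 0.0312). A second CDK8 probe, at -0.92, did not pass (limma adjusted p = 0.0802). Without any 1 control array or LOX-PP replicate 3 the limma adjusted p of the called CDK8 probe was 0.0699 to 0.144. The 285 named genes of chromosome 13, where CDK8 and RB1 both lie, had a median relative difference of -0.82, and the part of this in their values was not tested.

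Genes used as reporters of proliferation did not pass. The 3 probes of PCNA, the sliding clamp of DNA replication, had relative differences of -0.12, -0.12 and -0.43 (limma adjusted p 0.679 to 0.983). The 3 probes of MKI67, the Ki-67 antigen of cycling cells, had relative differences of -0.78, -0.09 and -0.01 (limma adjusted p 0.226 to 0.974), and the latter pair took the opposite sign after quantile normalization, at 0.18 and 0.25. None of the 11 probes of immediate-early and other output genes of the ERK pathway, which induces cyclin D1, passed. Of these genes 5 lay above and 5 below the median of all probes, with a median of 0.10 (0.23 after quantile normalization). The groups did not overlap for 4 of the 11 probes, 4 higher and 0 lower, beside 16.1% higher and 13.4% lower of all tested probes.

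**Figure D3:**
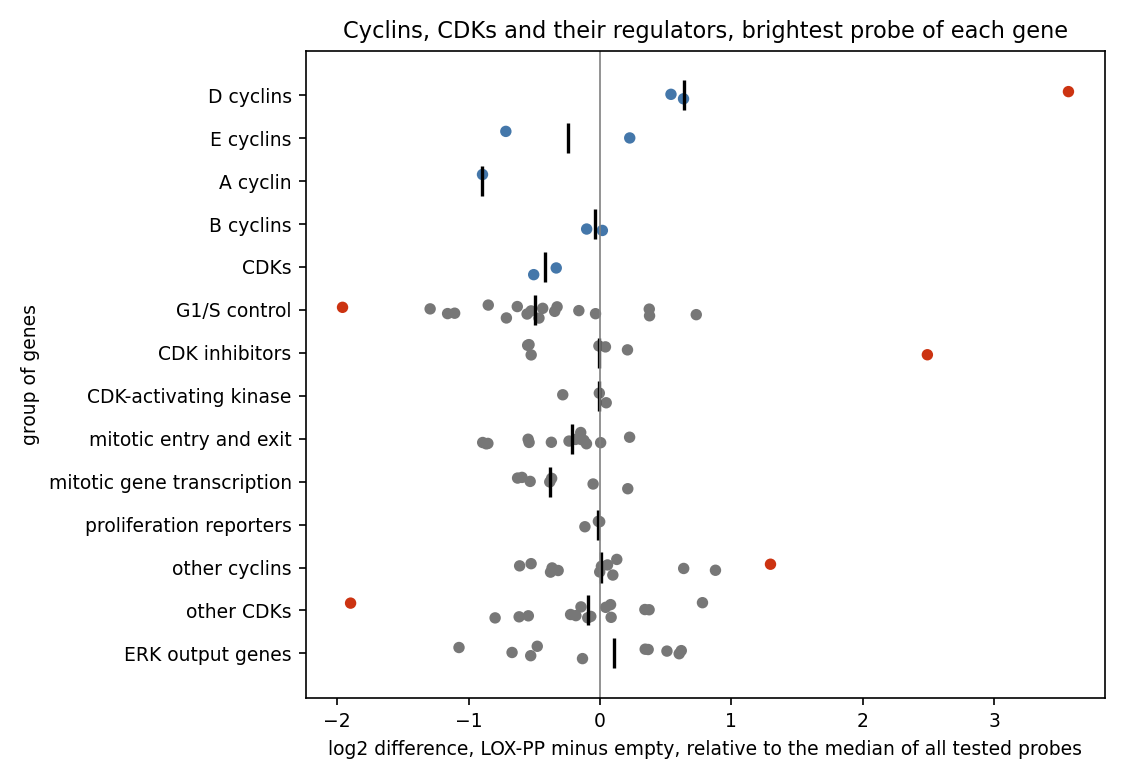
Relative log2 difference (LOX-PP minus empty, minus the median of all tested probes) of the brightest probe of each gene, with 1 point per gene in 14 groups. Blue points are the 10 cyclin and CDK genes, grey points the regulators, red points those with an adjusted p under 0.05, and the black bar is the median of a group. CCND2 (3.57) and CDKN1A (2.49) lie far to the right and CDK6 (-1.96) and CDK8 (-1.90) to the left, while the called CCNB1 and RBBP4 probes are not shown because brighter probes of those genes exist.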

How the data were processed

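Total RNA of 6 A673/TR cultures, 3 empty and 3 LOX-PP, was hybridised to 1-colour Agilent arrays. The deposited intensity values are the processed signals of Feature Extraction 10.7, background-subtracted and detrended by the scanner software as the authors ran it. The authors also deposited log2 values, which equalled those computed here, centred for each probe, within 0.00537. No value column lacked a sample (0 columns).

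Spots of a probe were averaged on the log2 scale without outlier spots, and each array was scaled to its 75th percentile. Of 50599 probes, limma tested the 32647 that 3 or more of the 6 arrays detected well above background, with version 3.58.1 (R 4.3.3) and without a block, and p-values were adjusted by the Benjamini-Hochberg method. Scripts were tested on simulated data. Genes were named through transcript accessions and RefSeq (28174 probes, 20503 genes), and no CCNA1 probe was matched here. All probes of the cyclins and CDKs are named, with any regulator probe past the threshold (at most 3 a list), CDKN1A, CDK4, CDK6, RB1, MKI67, PCNA and LOX. The genes and lists were chosen with earlier results of these data known. Alternatives changed the scaling, the values' source, the background correction (on median spot signals), the filter, the slide or replicate block, the test and the arrays included. The number of arrays limits the precision.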

Additional observations from a re-analysis of the deposited data

How the results depend on the processing

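CCND2 kept its direction in all 15 alternatives and CCNB1's dimmer probe in all 16. The groups of both probes did not overlap, so leaving out an array could not reverse the difference between group means. The cyclin and CDK probes past the threshold numbered 2, and 1 with the filter on all 6 arrays (CCND2 was then not tested), 1 without a filter on dim probes, 1 with the replicate block (CCND2 stayed, and the dimmer CCNB1 probe had an adjusted p of 0.0750), 0 with the methods' t-test, and 1 to 2 when an array was left out. All probes past it numbered 1849, and 516 without a filter, 860 with the replicate block, 2774 with an intensity trend, 566 with the t-test (6430 at an unadjusted p of 0.05, among them 4 of the 13 probes, beside 6954 with limma) and 407 to 2062 when an array was left out, with 407, 444, 892 and 1037 without control replicate 1 or 2 and LOX-PP replicate 2 or 3. Regulator probes past it numbered 5, and 9 with the filter on all 6 arrays, 0 without a filter, 1 with the replicate block, 12 with an intensity trend, and 0 to 6 when an array was left out (0, 0, 2 and 1 without the same 4 arrays). Probes with groups that did not overlap numbered 5, and 6 to 8 when an array was left out, where fewer arrays make separation easier. Replicates of one number did not deviate together (correlations of 0.27, -0.39 and 0.23), so the numbers were not taken as pairs, although the methods speak of separate experiments with both lines. With the replicate block CDK6, CDK8, CCNO and RBBP4 did not pass (adjusted p = 0.0959, 0.0576, 0.0612 and 0.0533), while CDKN1A did. The slide as a block equals leaving out LOX-PP replicate 1, the 1 array of the second slide.

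Signs changed only for small differences that did not pass. The brighter CCNB1 probe (0.02) was at -0.0481 after quantile normalization, -0.0745 with normexp, -0.159 without a filter, -0.0674 with the slide as a block and -0.0674 to 0.186 when an array was left out. The dimmer CDK1 probe (0.14) was at -0.0993 after quantile normalization, -0.0326 without a filter, -0.134 with the slide as a block and -0.134 to 0.362 when an array was left out. With an array left out the dimmer CCNE2 probe ranged from -0.343 to 0.103, CCNB2 from -0.238 to 0.0707, CDK4 from -0.348 to 0.0261, and a PCNA probe from -0.238 to 0.0128. Of the MKI67 probes, 1 was at 0.18 after quantile normalization and -0.51 to 0.31 when an array was left out, and the other at 0.25, at 0.0446 with the filter on all 6 arrays, and at -0.52 to 0.36. Causes were not tested. The alternatives for regulators and for differences between probes of a gene were added after seeing the data. Values for CCND2 in control cells are limited by background signal.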
